A study of Homo sapiens with 6 samples.

Results

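Stretches of chromatin that carried strong H3K27me3 in 3 lymphoma cell lines at once numbered 600, out of 12987 stretches that the islands of all 3 lines shared at the same limits of length and input (4.62%). H3K27me3 is the trimethylated lysine on histone H3 that EZH2, the catalytic subunit of Polycomb repressive complex 2, deposits and that marks silenced chromatin. Polycomb complexes hold developmental regulators and genes of other lineages silent, often over long stretches of chromatin, and mutant EZH2 in B cell lymphoma is known for raising the level of the mark. An island is an interval in which H3K27me3 reads exceeded the reads of the matched input, as called by the authors in each line separately.

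The lines were Pfeiffer, WSU-DLCL2 and KARPAS-422, established cultures of human diffuse large B cell lymphoma, all labelled EZH2 mutant, with average gIC50 values of 28, 134 and 232 nM in the labels. The study profiled them because they differ in sensitivity to the EZH2 inhibitor GSK126, and the labels name no compound given to the cells before fixation. For each of them there was 1 library of immunoprecipitated DNA and 1 of input, without replicates, and no p-value was computed. All groups are EZH2 mutant lines, and no EZH2 wild-type line was analysed here.

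Strength was measured as r, the ratio of H3K27me3 to input reads of an island divided by the median of that ratio over the autosomal islands of the same line, so that an r of 1 is the line's median island. An island counted as strong with a length of 5 to 100 kb, at least 50 input reads and an r at least 25% above that median, and a strong shared stretch is a run of bases covered by strong islands of all 3 lines. This limit on r was equal to a fold over input of 1.97 for Pfeiffer, 1.93 for WSU-DLCL2 and 2.02 for KARPAS-422 on the authors' scale. Of the islands within the limits, 1981 of 19618 were strong for Pfeiffer (10.1%), 2664 of 21160 for WSU-DLCL2 (12.6%) and 3287 of 23268 for KARPAS-422 (14.1%). These shares follow from the rule and are given as its background. The stretches were chosen by r, so the r values below describe them and test nothing.

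The strong shared stretches covered 14.5 Mb, which is 0.504% of the 2879 Mb of the autosomes and 7.12% of the 204 Mb in shared stretches of any strength. They lay in 530 islands of Pfeiffer, 517 of WSU-DLCL2 and 564 of KARPAS-422, because a single island of a line could hold several of them (up to 4 in Pfeiffer and WSU-DLCL2, up to 3 in KARPAS-422). Stretches inside the same island share its reads and its r and are not independent of each other. Every value of r and every read count belongs to the whole island, of which the stretch was a median of 74.7% for Pfeiffer, 67.8% for WSU-DLCL2 and 94.4% for KARPAS-422.

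Most strong islands of a line held no strong shared stretch. Of the strong islands, 26.8% for Pfeiffer, 19.4% for WSU-DLCL2 and 17.2% for KARPAS-422 held a strong shared stretch. A larger part (35.8%, 40.1% and 40.6% in the same order) met islands of both other lines within the limits, of which at least 1 was weaker. Another 21.0%, 18.6% and 29.5% met islands of both other lines, but shared no base with islands within the limits in both at once. Islands outside the limits and islands at different parts of the strong island were not told apart here. The remaining 16.5%, 21.8% and 12.7% found no island at all in at least 1 other line.

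Among the 12987 shared stretches, 9310 were strong in no line, 2134 in 1 line, 943 in 2 lines and 600 in all 3. Of the 1515 shared stretches strong for Pfeiffer, 52.9% were strong for WSU-DLCL2 and 58.2% for KARPAS-422, where 15.9% and 17.3% of all shared stretches were strong. Of the 2062 strong in WSU-DLCL2, 51.4% were strong in KARPAS-422. Across all shared stretches, Spearman's rho of r was 0.45 for WSU-DLCL2 with Pfeiffer, 0.52 for KARPAS-422 with Pfeiffer and 0.42 for KARPAS-422 with WSU-DLCL2. Stretches of 1 genome are not replicates, and these coefficients are descriptions over points that share islands and libraries.

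**Figure D1:**
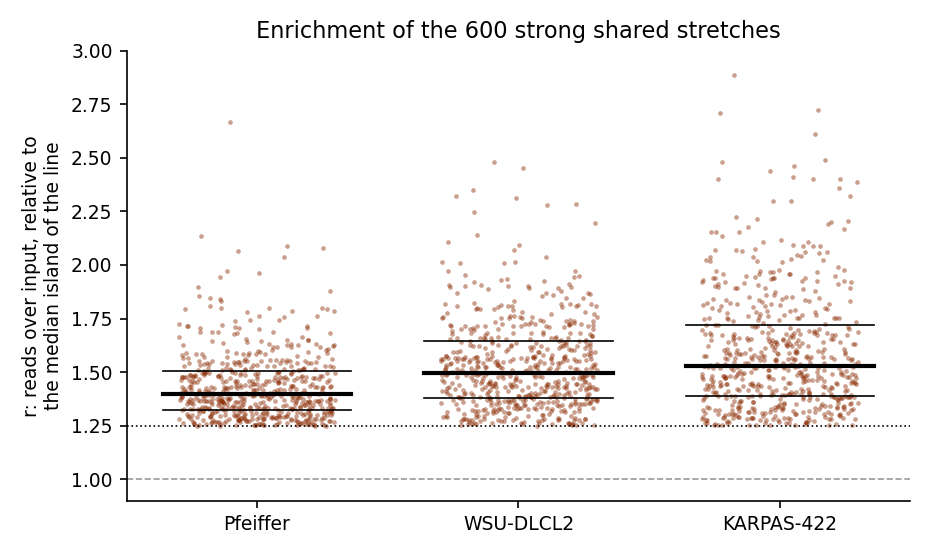
Each point is 1 of the 600 strong shared stretches, and the vertical axis is r (no unit) of the island that holds it in the named line. Thick lines are medians (1.40, 1.497 and 1.53), thin lines quartiles, the dotted line the limit of 25% above the median island and the dashed line the median island. Points reach highest in KARPAS-422.

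By r, the strong shared stretches had the highest median in KARPAS-422 and the lowest in Pfeiffer. The same limit was met by 11.7% of all shared stretches for Pfeiffer, 15.9% for WSU-DLCL2 and 17.3% for KARPAS-422, so the rule favours this order. By H3K27me3 reads per kb, described next, KARPAS-422 had the lowest median. The median r was 1.40 for Pfeiffer (quartiles 1.32 and 1.51), 1.497 for WSU-DLCL2 (1.38 and 1.64) and 1.53 for KARPAS-422 (1.39 and 1.72). The lowest r of the 3 lines was that of Pfeiffer at 324 of the 600 stretches, that of WSU-DLCL2 at 153 and that of KARPAS-422 at 123. Among the other 12387 shared stretches the lowest r was that of Pfeiffer at 3715, that of WSU-DLCL2 at 4203 and that of KARPAS-422 at 4469. An r of at least 1.5 was reached in 153 stretches for Pfeiffer, 298 for WSU-DLCL2 and 328 for KARPAS-422, and in all 3 lines at once in 78.

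The H3K27me3 side of the ratio set the strong shared stretches apart in each line, and the input side did so clearly only in KARPAS-422. H3K27me3 reads per kb of island, relative to the median island within the limits, had a median of 1.44 in the strong shared stretches against 1.04 in the other 12387 shared stretches in Pfeiffer. For WSU-DLCL2 the same medians were 1.47 against 1.04, and for KARPAS-422 1.29 against 1.03. These reads are the numerator of r, so the direction of the difference follows from the rule, and only its size in each line is described.

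Input reads per kb differed little in Pfeiffer and WSU-DLCL2 and were low in KARPAS-422. The median relative input was 1.00 in the strong shared stretches against 1.01 in the others for Pfeiffer, 0.965 against 1.02 for WSU-DLCL2 and 0.815 against 1.01 for KARPAS-422. It was under 1 at 87.3% of the strong shared stretches and 47.2% of the others for KARPAS-422, at 58.7% and 43.2% for WSU-DLCL2, and at 48.7% and 45.6% for Pfeiffer. With H3K27me3 reads per kb alone, 290 of the 600 stretches were at least 25% above the median island in all 3 lines, against 431 of the other 12387. Input is the denominator of r, so the rule itself favours low input, and only the size of the difference in each line is described. What else lowers the input of KARPAS-422 at these places was not tested.

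**Figure D2:**
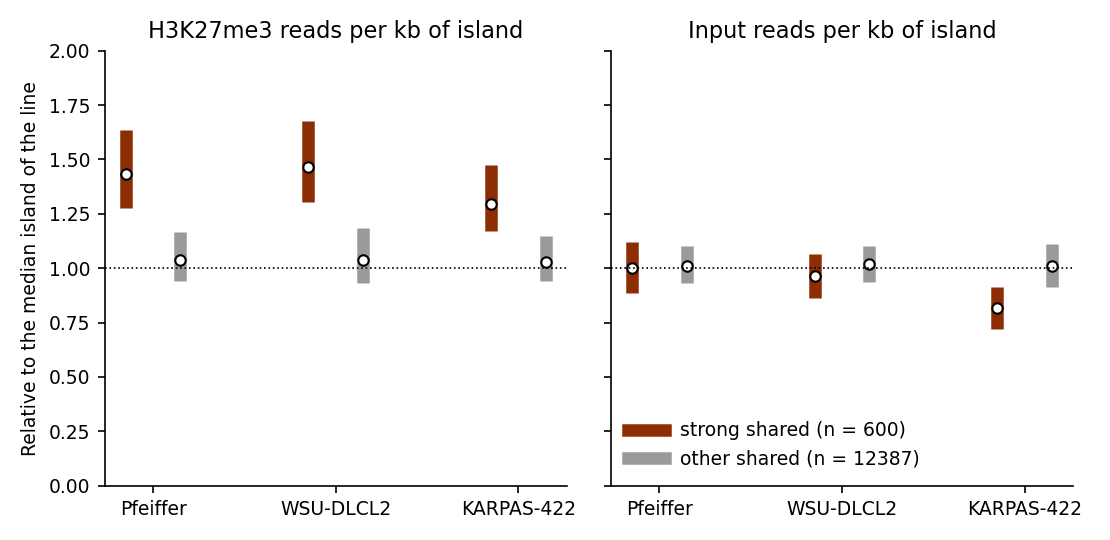
Bars span the quartiles and circles mark the medians of H3K27me3 reads (left) and input reads (right) per kb of island, each relative to the line's median island within the limits (no unit), for strong shared stretches (red) and other shared stretches (grey). Medians of H3K27me3 reads are 1.44, 1.47 and 1.29 in the strong shared stretches. The input median of 0.815 in KARPAS-422 is the only one clearly off 1.

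The 12 stretches with the highest common enrichment, ranked by the lowest r of the 3 lines, were 8.25 to 72 kb long. The first was chr11:825001-837750 in hg19, a stretch of 12.75 kb that lay 0.825 Mb from the chromosome's start. Its island held 464 H3K27me3 and 129 input reads for Pfeiffer, 532 and 121 for WSU-DLCL2, and 406 and 53 for KARPAS-422. The r values were 1.96 for Pfeiffer (95% interval 1.61 to 2.41), 2.246 for WSU-DLCL2 (1.84 to 2.76) and 2.89 for KARPAS-422 (2.16 to 3.92). The highest of these, that of KARPAS-422, stood beside the fewest reads of both kinds. All intervals cover counting error only, because reads amplified without molecular identifiers may repeat a molecule, and none allows for the choice of these stretches by r.

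On chromosome 16 the islands at chr16:3033751-3052500 and chr16:3055501-3069000 were separate in WSU-DLCL2 and KARPAS-422 but lay in 1 island of 37.5 kb in Pfeiffer. That Pfeiffer island had an r of 1.80 (1329 H3K27me3 and 403 input reads). The left stretch had an r of 2.20 in WSU-DLCL2 (843 and 196 reads) and 2.18 in KARPAS-422 (658 and 114 reads). The right stretch had 1.95 in WSU-DLCL2 (557 and 146 reads) and 1.853 in KARPAS-422 (408 and 83 reads).

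The 72 kb at chr20:61141501-61213500, 1.70 Mb from the chromosome's end, gave the most even values among these. The r values were 1.79 for Pfeiffer (1.66 to 1.94), 1.79 for WSU-DLCL2 (1.66 to 1.93) and 1.78 for KARPAS-422 (1.63 to 1.95), and the island had the same start and end in each line. It held 2857, 3063 and 2839 H3K27me3 reads and 870, 875 and 600 input reads. The input of the islands within 2.5 Mb around it, relative to the line's median, was 1.00, 1.00 and 1.06 in the lines. For KARPAS-422 this regional input was under 0.85 at 10 of the 12 highest-ranked stretches, between 0.707 and 0.824, with 0.794 at the first-ranked stretch on chromosome 11. Its part in their r was not tested.

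Of the 12 stretches with the highest lowest r, 11 lay within 5 Mb of a chromosome end and 5 on chromosome 16. The exception was chr19:18522001-18530250, a stretch of 8.25 kb lying 18.5 Mb from the nearer end. It had r values of 1.88 for Pfeiffer, 1.74 for WSU-DLCL2 and 2.22 for KARPAS-422. The lowest r of the 12 ranged from 1.72 to 1.96. The highest r of any line at a strong shared stretch, looked up after the values were seen, was the 2.89 of KARPAS-422 on chromosome 11. In Pfeiffer it was 2.67 at chr19:48895501-48901500, from 254 H3K27me3 and 52 input reads, where WSU-DLCL2 had 1.60 and KARPAS-422 1.40. In WSU-DLCL2 it was 2.48 at chr19:2468251-2473500, from 486 and 100 reads, where Pfeiffer had 1.26 and KARPAS-422 1.70.

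At the limit itself the choice of stretches was decided by very few reads. Just inside lay chr19:42309751-42325500, chr12:122502751-122515500 and chr11:61740001-61755000, and just outside chr1:151677751-151716000, chr1:39963001-39975750 and chr11:47208751-47232000. In each of these 6 Pfeiffer had the lowest r, and its distance to the limit was under 1%. The 95% interval in Pfeiffer ran from 1.01 to 1.56 for the stretch on chromosome 12 just inside, with 284 H3K27me3 and 124 input reads. It ran from 1.12 to 1.39 for the first stretch just outside, with 1154 and 504 reads. Counting alone placed the whole 95% interval at or above the limit in all 3 lines for 160 of the 600 stretches, and at or above an r of 1 for 576.

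Strong shared stretches were longer than the other shared stretches. The median length was 18.75 kb (quartiles 12 and 31.5 kb) against 12 kb (8.25 and 18.75 kb). The strong share rose through the length classes, with 1.65% of the stretches under 5 kb, 1.94% from 5 to 10 kb, 4.66% from 10 to 20 kb, 6.96% from 20 to 40 kb and 16.1% from 40 kb up. Only 7 were at most 3 of the authors' windows long, and 104 were at least 40 kb long. Longer islands hold more reads, and r correlated weakly with stretch length over all shared stretches (rho 0.17 for Pfeiffer, 0.14 for WSU-DLCL2 and 0.19 for KARPAS-422).

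The 6 longest were between 81 and 89.25 kb, which the upper length limit on islands forces to lie in islands of like extent. The longest, chr1:2347501-2436750, lay in islands of 91.5 kb for Pfeiffer, 90 kb for WSU-DLCL2 and 90 kb for KARPAS-422. Its r was 1.44 for Pfeiffer, 1.57 for WSU-DLCL2 and 2.20 for KARPAS-422, from 2743, 2844 and 2567 H3K27me3 reads over 1042, 925 and 439 input reads. The H3K27me3 counts were close together and the input counts were not. These counts are not scaled between libraries. At the other shared stretches median input per kb of island was also lowest in KARPAS-422, at 7.62 reads, against 10.8 for Pfeiffer and 10.9 for WSU-DLCL2. On chromosome 19, chr19:55997251-56085000 had an island of 87.75 kb with identical ends in all 3 lines. Its r was 1.35 (1.253 to 1.46), 1.40 (1.297 to 1.51) and 1.31 (1.21 to 1.41), intervals that overlap each other.

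A pair of these long stretches lay close together on chromosome 11, at chr11:1982251-2064000 and chr11:2163751-2245500, each 81.75 kb long. Their r was 1.39 and 1.28 for Pfeiffer, 1.39 and 1.34 for WSU-DLCL2, and 1.84 and 1.84 for KARPAS-422. Far from any end, chr1:38063251-38144250 had 1.29, 1.35 and 1.38, and chr19:47901751-47985000 had 1.48, 1.302 and 1.39. Of the 6 longest, 4 lay within 5 Mb of a chromosome end.

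The borders of the strong shared stretches coincided between lines more often than those of other shared stretches. Island starts were identical in the 3 lines at 66 of 600 stretches (11.0%) against 588 of 12387 others (4.75%), and island ends at 77 (12.8%) against 540 (4.36%). Both edges were identical at 10 (1.67%) against 36 (0.291%), and both lay within 1.5 kb, which is a pair of the authors' windows, at 60 (10.0%) against 378 (3.05%). The median spread of the 3 starts was 6 kb against 12.75 kb, and that of the ends was the same (6 against 12.75 kb). The stretch filled at least 80% of the island in every line at 21.3% against 6.70%. Edges were not named in the rule. The limit on r applies to whole islands in all 3 lines, however, so edges are not independent of it. What the rule contributes to these differences was not tested.

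Identical borders occurred in short and in long intervals. The island at chr6:36954751-36971250 was 16.5 kb long in each line, with r values of 1.47 for Pfeiffer (482 and 179 reads), 1.75 for WSU-DLCL2 (679 and 198 reads) and 1.37 for KARPAS-422 (465 and 128 reads). At chr9:134154001-134213250 the island was 59.25 kb long and its r was nearly equal, at 1.41, 1.40 and 1.43. At chr17:21130501-21187500, 57 kb long, r was 1.39, 1.48 and 1.46. All 3 lay more than 5 Mb from a chromosome end. The pair chr1:2458501-2477250 and chr1:1841251-1862250 had identical ends near the chromosome's start. The first, of 18.75 kb, held 728, 864 and 733 H3K27me3 reads. At the second, 1.84 Mb from the start, r was 1.57, 1.80 and 2.15.

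Where neighbouring strong shared stretches were parts of 1 island in some line, the called islands were most often split in KARPAS-422. There were 578 pairs of neighbours on the same chromosome. Of these, 111 lay inside a common island of at least 1 line, with a median gap of 4.5 kb. The pair was inside 1 island of Pfeiffer in 70, of WSU-DLCL2 in 83 and of KARPAS-422 in 36. The gap was found for KARPAS-422 alone in 45 pairs, for Pfeiffer alone in 23 and for WSU-DLCL2 alone in 10. The islands of the strong shared stretches held a median of 652 H3K27me3 and 154.5 input reads for KARPAS-422, 976.5 and 378.5 for Pfeiffer, and 1139 and 396 for WSU-DLCL2, and what these numbers contribute to the gaps was not tested.

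**Figure D3:**
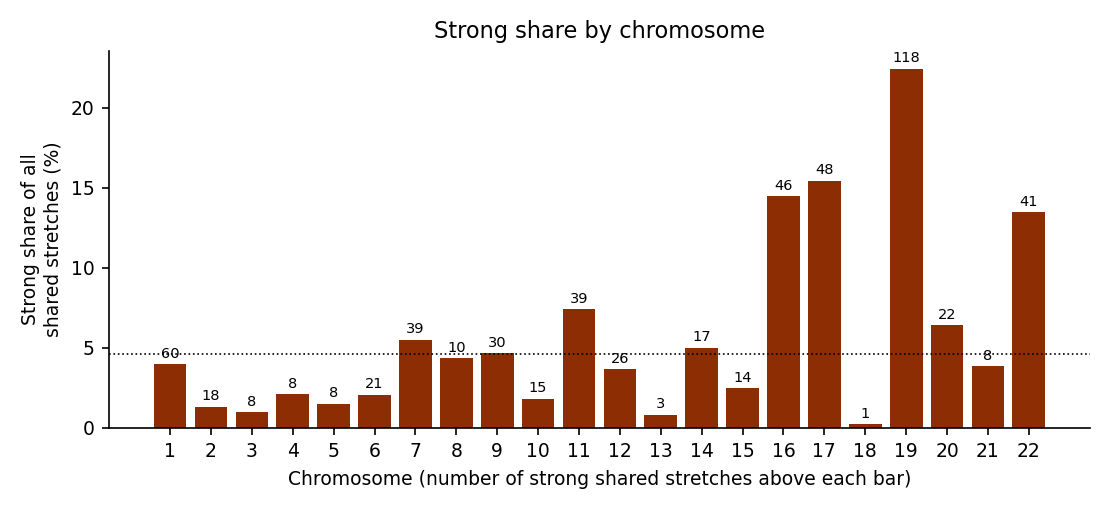
Bars give the percentage of all shared stretches of a chromosome that were strong in all 3 lines, with the number of strong shared stretches above each bar, and the dotted line is the 4.62% over all autosomes. Chromosome 19 reaches 22.4%, and chromosomes 16, 17 and 22 also stand far above the line, while chromosomes 3, 13 and 18 are under 1%.

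The strong shared stretches were spread very unevenly over the chromosomes. Chromosome 19 alone held 118 (19.7%), chromosome 1 held 60, chromosome 17 held 48, chromosome 16 held 46 and chromosome 22 held 41. These 5 chromosomes make up 18.4% of the autosomal length and 22.9% of all shared stretches, and they held 52.2% of the strong ones. Every autosome had at least 1, but chromosome 18 had a single one, chr18:12273751-12290250, and chromosome 13 had 3.

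Strong shared stretches took up 4.06% of the length of chromosome 19, 1.73% of chromosome 22, 1.40% of chromosome 17 and 1.10% of chromosome 16. They took up 0.0211% of chromosome 18, although chromosome 18 had 56.0 shared stretches of any strength per 10 Mb, against 59.4 on chromosome 22. The strong part of all shared stretches was 22.4% on chromosome 19, 15.4% on 17, 14.5% on 16 and 13.5% on 22, against 0.229% on 18, 0.813% on 13 and 0.985% on 3. On chromosome 19 strong islands were common in each line separately, at 37.9% of the islands within the limits for Pfeiffer, 40.3% for WSU-DLCL2 and 44.3% for KARPAS-422.

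These chromosomes are rich in genes. Across the 22 autosomes, Spearman's rho between strong shared stretches per 10 Mb and protein-coding genes per Mb was 0.90, and between the strong part of all shared stretches and gene density it was 0.80. For shared stretches of any strength per 10 Mb it was 0.37. Genes were counted per chromosome in the RefSeq table for GRCh38.p14, both densities have the same chromosome length as divisor, and chromosomes are not replicates. Chromosome 19 had 24.6 protein-coding genes per Mb and 19.97 strong shared stretches per 10 Mb, and chromosome 18 had 3.46 genes per Mb and 0.128 stretches per 10 Mb. No gene annotation on hg19 was used here, so the genes inside single stretches are not named.

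Strong shared stretches were also concentrated toward chromosome ends. Of the 600, 241 lay within 5 Mb of an end (40.2%), against 1308 of the other 12387 shared stretches (10.6%), and 72 within 1 Mb (12% against 2.11%). The median distance to the nearer end was 10.2 Mb against 29.2 Mb. Over 20 Mb from an end lay 33.3% against 64.2%. Without chromosome 19, the share within 5 Mb was 41.5% against 10.5%, so the difference was as large without that chromosome.

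**Figure D4:**
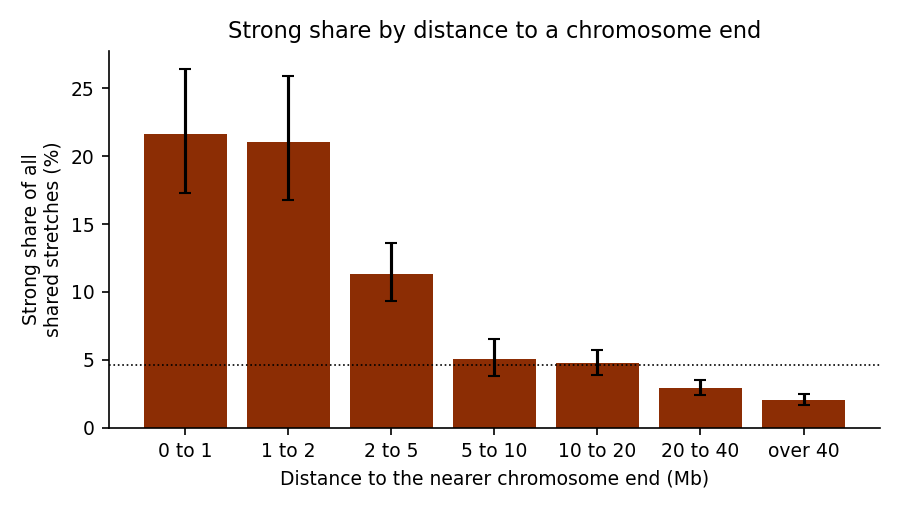
Bars give the percentage of all shared stretches that were strong in all 3 lines, by distance to the nearer chromosome end in Mb, with exact 95% binomial intervals that cover counting error only, and the dotted line is the 4.62% over all autosomes. The share is 21.6% in the outermost 1 Mb and 2.06% over 40 Mb from an end.

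The strong part of the shared stretches fell with distance from the end. It was 21.6% in the outermost 1 Mb (72 of 333, exact 95% interval 17.3% to 26.4%), 21.1% from 1 to 2 Mb and 11.3% from 2 to 5 Mb. It was 5.04% from 5 to 10 Mb, 4.75% from 10 to 20 Mb, 2.95% from 20 to 40 Mb and 2.06% beyond (93 of 4521, 1.66% to 2.51%). Neighbouring stretches are not independent, so the intervals are narrower than the true error.

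The pattern held within most chromosomes but not all. On 17 of the 22 autosomes a shared stretch within 5 Mb of an end was strong more often than one farther in. On chromosome 16 it was 34 of 66 near an end (51.5%) against 12 of 252 farther in (4.76%), on chromosome 9 21 of 74 (28.4%) against 9 of 569 (1.58%), and on chromosome 14 13 of 36 (36.1%) against 4 of 303 (1.32%). On chromosome 5 there were 7 of 61 near an end against 1 of 472 farther in, and on chromosome 4 7 of 38 against 1 of 346. Chromosome 6 went the other way, with 2 of 155 near an end (1.29%) against 19 of 858 farther in (2.21%), as did chromosome 12, with 2 of 89 against 24 of 624. Chromosomes 3 and 18 had none within 5 Mb of an end. Chromosomes 17, 19 and 22 had many in the interior as well, with 11.9%, 17.7% and 12.1% of the shared stretches over 5 Mb from an end.

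Input around the stretches also differed between strong and other shared ones. Regional input was read from islands centred within 2.5 Mb of a stretch, without the stretch's own island, relative to the line's median. Other strong islands stayed in that window, and the rule favours low input in them, so regional input is not independent of the rule. In KARPAS-422 it was under 0.85 at 203 of the 600 strong shared stretches (33.8%) against 408 of the 12387 others (3.29%). In WSU-DLCL2 it was that low at 33 (5.5%) against 39 (0.315%), and in Pfeiffer at 21 (3.5%) against 59 (0.476%). The part of regional input in the pattern along the chromosomes was not tested beyond the setting that follows.

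With regional input within 15% of the median in all 3 lines, a setting chosen after the data were seen, 293 of the 600 strong shared stretches were left, which is 3.07% of the 9548 shared stretches in such regions. Of these 293, 21.2% lay within 5 Mb of an end, against 8.97% of the others in such regions. Chromosome 1 then held 42, chromosome 22 held 38, chromosome 19 held 34, chromosome 16 held 7 and chromosome 17 held 1. The rho with gene density was 0.57, against 0.90 for all 600. Both rho values divide by the whole length of a chromosome, and the shared stretches in such regions were not counted per chromosome. The counts and the rho therefore also depend on how much of each chromosome lies in such regions. The ratio of both shares within 5 Mb of an end, strong over other, was 2.36 in these regions and 3.80 over all shared stretches.

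A few stretches stood in regions where 1 line had a very low input. In KARPAS-422 the regional input was under 0.75 at 64 shared stretches, of which 30 were strong (46.9%), 26 of them on chromosome 19. In Pfeiffer it was that low at 54, of which 18 were strong (33.3%), with 12 on chromosome 17 and 6 on chromosome 8. In WSU-DLCL2 it was that low at 15, of which 5 were strong (33.3%), all 5 on chromosome 15. Over all shared stretches 4.62% were strong. A raised regional input of 1.3 or more did not keep stretches out in every line. At such places 5.02% of the shared stretches were strong when Pfeiffer was the line with raised input, 4.02% for WSU-DLCL2 and 0.678% for KARPAS-422.

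**Figure D5:**
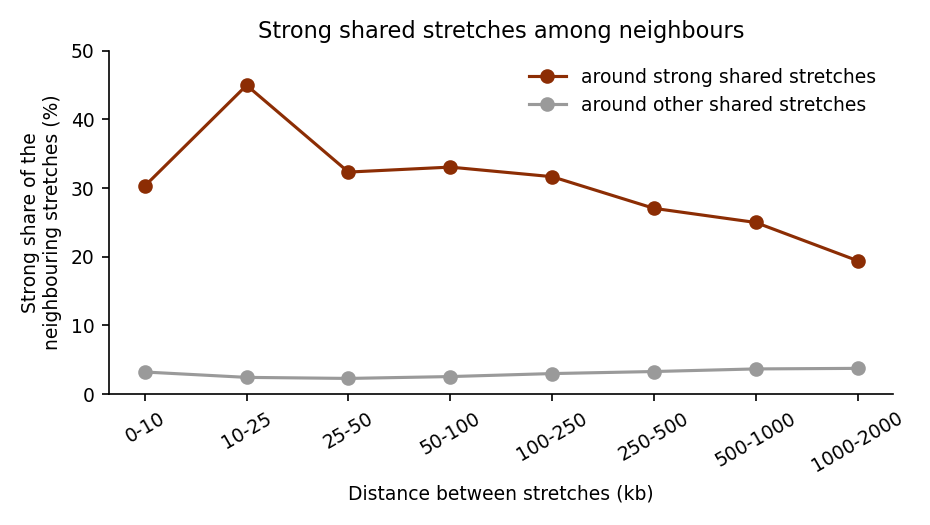
Points give the percentage of neighbouring shared stretches that were strong in all 3 lines, by distance between the 2 stretches in kb, around strong shared stretches (red) and around other shared stretches (grey). Pairs inside a common island of any line are left out. Around strong shared stretches the share is 30.3% at 0 to 10 kb, 44.97% at 10 to 25 kb and 19.4% at 1000 to 2000 kb. Around the others it stays under 4%.

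Strong shared stretches lay in clusters. The median distance to the nearest other was 51 kb, 181 had another within 10 kb (30.2%), 360 within 100 kb (60%) and 534 within 1 Mb (89.0%). These distances include pieces of 1 island that another line's list splits. With such pieces left out, the median distance to the nearest other was 134.25 kb, and 20 had another within 10 kb (3.33%), 253 within 100 kb (42.2%) and 511 within 1 Mb (85.2%). Of the other 12387 shared stretches, 0.371%, 4.49% and 22.1% had a strong shared stretch at these distances that shared no island with them. Taken from the fullest bins down, 50% of the 600 fitted into 63 of 2893 bins of 1 Mb (2.18%). Of the neighbours 10 to 25 kb away that shared no island, 76 of 169 were strong (44.97%), against 93 of 3825 around other shared stretches (2.43%). At 0 to 10 kb it was 20 of 66 (30.3%) against 46 of 1432 (3.21%). The share was 32.3% against 2.28% at 25 to 50 kb, 31.7% against 2.99% at 100 to 250 kb and 19.4% against 3.74% at 1 to 2 Mb. The strong part of all shared stretches on the same chromosomes, weighted by the pairs of each distance class around strong shared stretches, was between 8.30% and 10.8%. With pieces of a common island counted, 77.6% of the 241 strong shared stretches within 5 Mb of an end and 48.2% of the 359 farther in had another within 100 kb.

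Joined at gaps under 100 kb, the 600 formed 366 groups, of which 240 were single stretches, 71 pairs and 55 groups of at least 3. Those 55 held 218 stretches (36.3%), and 29 of the 55 lay within 5 Mb of an end. The fullest group held 10 stretches over 489 kb at chr9:139845751-140334750, 195 kb of it covered. The r of its stretches ranged from 1.39 to 1.90 for Pfeiffer, from 1.35 to 1.90 for WSU-DLCL2 and from 1.42 to 2.72 for KARPAS-422. Of the 13 shared stretches in its span 10 were strong in all lines, and they lay in 8 islands of Pfeiffer, 7 of WSU-DLCL2 and 6 of KARPAS-422. The regional input there was 1.03 for Pfeiffer, 0.992 for WSU-DLCL2 and 0.778 for KARPAS-422.

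The next group, of 8 stretches over 444.75 kb at chr19:55640251-56085000, had a regional input of 0.893 for Pfeiffer, 0.915 for WSU-DLCL2 and 1.17 for KARPAS-422. All 8 shared stretches in its span were strong, with median r of 1.36, 1.44 and 1.41 in Pfeiffer, WSU-DLCL2 and KARPAS-422. The stretch with the highest lowest r in it, chr19:55862251-55890750, had r values of 1.64, 1.91 and 1.78, from 953, 1045 and 1155 H3K27me3 reads.

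Another group of 8 stood at chr1:2128501-2588250, with 279.75 kb covered and a median r of 1.45 for Pfeiffer, 1.46 for WSU-DLCL2 and 1.96 for KARPAS-422. Groups of 6 stood at chr9:138853501-139251750 (medians 1.45, 1.70 and 1.70), at chr1:1052251-1378500 (1.63, 1.46 and 1.77) and at chr19:46238251-46494000 (1.52, 1.57 and 1.54). In each of these 3 groups of 6, all shared stretches in the span were strong. For KARPAS-422 the regional input of these 4 groups was 0.811, 0.780, 0.754 and 0.822 in the order given, and its part in their r was not tested. The last of them lay 12.6 Mb from the chromosome end, the others within 5 Mb.

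The surroundings of the strong shared stretches were not more densely covered by islands than those of the others. Islands of the 3 lines covered a median of 45.1% of the 500 kb to either side of strong shared stretches and 44.1% around the other shared stretches. An island of over 100 kb, too long for the rule, lay within 50 kb of 16.5% of the strong shared stretches and of 15.99% of the others.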

How the data were processed

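Formaldehyde-fixed chromatin of 3 cell lines was immunoprecipitated with an anti-H3K27me3 antibody and sequenced beside input, per the labels' protocols. Alignment was to hg19 with Bowtie, and SICER called islands, per the submitters' processing notes, with versions not given in the sources used here. The deposited names give a false discovery rate of 0.001, gaps of 2250 bases and windows of 750. Per island, the deposited files hold whole counts of H3K27me3 and input reads, the authors' fold (a ratio over input after library scaling), a p-value and a q-value. Total depths are unknown, since the lists hold only reads inside islands.

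From these, r was computed as described in the text, which cancels the library scaling. Islands outside the autosomes were left out. The limits on islands removed few in Pfeiffer and WSU-DLCL2 and more in KARPAS-422: 3429 of its 27589 autosomal islands had under 50 input reads. Stretches were found on the grid of 750 bases, with positions printed from 1. A chromosome ended at its last listed base. Other shared stretches met the same limits without the limit on r in all lines. Intervals are exact 95% binomial ones (Clopper-Pearson), for r converted from the share of H3K27me3 reads. The finder and the intervals were tested on simulated data. Stretches were named by rule: the 12 with the highest lowest r, the 6 longest, the 6 fullest groups, up to 6 with identical ends, and 3 on either side of the limit on r. The stretches, rules and comparisons were chosen with earlier results of these data known. Planned gene lists and transcription starts were not run, since no hg19 annotation was used here, and no sequence is printed for the same reason. Python 3.11.15, numpy 2.4.6, pandas 2.3.3, scipy 1.17.1 and matplotlib 3.10.9 were used.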

Additional observations from a re-analysis of the deposited data

Results flagged for a closer look

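Chromosome X lay outside the comparisons by the rule. With it included, 9 of the 22 shared stretches there were strong, against 4.62% of the autosomal ones in the main setting. Islands within the limits on X came to 52 for Pfeiffer, 90 for WSU-DLCL2 and 740 for KARPAS-422, of which 32, 60 and 55 were strong. Of the 9, 7 lay in the last 5 Mb, and the longest was 38.25 kb at chrX:153117001-153155250.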

How the results depend on the processing

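Results are descriptions of a chosen set, and many of their values moved with the limits of the rule. The number of strong shared stretches, 600 over 14.5 Mb, was 1228 over 28.2 Mb with a limit on r 15% above the median and 78 over 2.18 Mb with r of at least 1.5. It was 1173 over 46.6 Mb without an upper length limit and 1176 (46.6 Mb) with no length limits. It was 395 with at least 100 input reads and 263 (6.26 Mb) at a false discovery rate of at most 1e-10, which also raises the median and so the limit. With 1 line left out it was 1246 (32.6 Mb) for WSU-DLCL2 and KARPAS-422 and 1003 (26.5 Mb) for Pfeiffer and KARPAS-422, and for Pfeiffer and WSU-DLCL2 it was 878 (22.8 Mb). With balanced regional input in all lines, chosen after the data were seen, it was 293 (7.12 Mb).

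The share within 5 Mb of a chromosome end, 40.2%, stayed at or above 21.2% in every alternative. It was 31.8% at the lower limit, 58.97% at 1.5, 49.4% at the stricter false discovery rate, 32.7% for WSU-DLCL2 and KARPAS-422, 34.4% for Pfeiffer and WSU-DLCL2 and 46.2% with equal numbers of islands per line. It was 21.2% with balanced regional input. After the data were seen, r multiplied by regional input gave 33.6% of 648 stretches and H3K27me3 reads per kb in place of r gave 33.7% of 722. These kept 389 and 290 of the 600.

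The share with another within 100 kb, 60% with pieces of a common island counted, was 70.03% at the lower limit, 28.2% at 1.5, 65.6% with no input minimum, 51.6% with at least 100 input reads and 77.1% or 76.96% without the upper or any length limit. It was 54.8% at the stricter false discovery rate, 50.8% with stretches under 5 kb apart joined, 65.8% for WSU-DLCL2 and KARPAS-422, 48.1% with balanced regional input and 54.6% with H3K27me3 reads per kb. A smaller set has fewer neighbours by construction.

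The median length, 18.75 kb, was 21 kb at 1.5, 16.5 kb with no input minimum, 26.25 kb with at least 100 input reads, 24.75 kb without the upper or any length limit, 21 kb with stretches joined and 20.6 kb with H3K27me3 reads per kb. Except where said, the cause of these shifts was not tested. The transcription-start alternatives were not run. No paired analysis was possible because each line had 1 library and no test was made.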
